A study of Xenopus tropicalis with 15 samples.

Results

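Regulators of paraxial mesoderm and skeletal muscle were followed through the transcriptomes of *X. tropicalis* gastrulae whose dorso-ventral (DV) axis had been perturbed. The genes are msgn1, mespa, mespb, mesp2, myf5 and myod1, taken by symbol, and all 6 listed genes were found among the 28206 genes of the count table. The libraries hold polyadenylated RNA of pooled whole embryos at stage 11 to 11.5, with 10 embryos per library and 5 libraries per condition, all from the wild-type out-bred Nigerian strain. The conditions were untreated embryos, embryos irradiated with UV for 2 min within 30 min of fertilisation, which ventralises them, and embryos exposed to 0.3 M LiCl at the 32-cell stage, which dorsalises them. The study chose strongly affected clutches, judged by siblings left to develop further, so weakly affected clutches are not represented. The comparisons ask where these genes stand between both ends of the DV axis, each treatment against untreated embryos and LiCl-treated against UV-treated embryos.

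The paraxial mesoderm flanks the notochord. Its unsegmented posterior part, the presomitic mesoderm, is kept by Wnt, FGF and Notch signals and buds off somites, which give rise to skeletal muscle among other tissues. In the *Xenopus* gastrula this territory lies in the ventro-lateral marginal zone, where Wnt8a is active, and its dorso-lateral part starts the muscle programme early. The basic helix-loop-helix (bHLH) factor Msgn1 acts in the presomitic mesoderm to promote its maturation, the Mesp bHLH factors set the position of the next somite boundary, and the bHLH factors Myf5 and MyoD commit cells to the muscle lineage. At this stage segmentation has not begun.

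Positions are those of the deposited models, which refer to scaffolds of assembly v7.1. There msgn1 is a gene of 1 exon on the minus strand of scaffold 9, at 96833397 to 96834422. The Mesp genes stand side by side on scaffold 3, where mespb lies on the minus strand at 25182384 to 25184409, mesp2 on the plus strand at 25201422 to 25202045, and mespa on the plus strand at 25215848 to 25217816, each with 2 exons. The gaps between them are 17012 and 13802 bp, and no other gene model lies in either gap. The myogenic factor myf5 has 3 exons on the plus strand of scaffold 3, at 81286564 to 81289726, and its nearest upstream neighbour, 7061 bp away, is myf6, another myogenic bHLH gene. The model of myod1 has 1 exon of 543 bp on the minus strand of scaffold 4377, at 1061 to 1603, and is the only gene on that scaffold. It is nearly all coding sequence, so reads from any untranslated part of its mRNA were not counted. Whether this short model holds the whole coding sequence was not checked. None of the 6 models overlaps another gene model. The models of the 3 Mesp genes were counted separately, and how the counting treated reads that fit more than 1 of them is not given in the sources used here.

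The 15 libraries hold between 8412818 and 18455126 counts, and LiCl-treated embryos had the lowest median (11152157, against 13987953 for UV-treated and 16560816 for untreated embryos). Germ layer markers were counted in every library, with medians of 228.8 to 1063 CPM for the mesodermal, 33.3 to 374 CPM for the endodermal and 102.9 to 1255 CPM for the ectodermal genes listed. CPM are read counts scaled to normalised library sizes, and all levels are given in them. A change was called where edgeR's quasi-likelihood test gave a fold change of at least 2 at a false discovery rate (FDR) of at most 1% over all 14041 genes tested. Of the 6 genes, 5 passed the filter on low counts, and mesp2 did not. The counts of myod1 ranged from 1 to 362 per library, and those of msgn1, mespa, mespb and myf5 from 13 to 3903, so counting error weighs most on myod1 and mesp2.

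The level of msgn1 fell 16.9-fold with LiCl against untreated embryos, while UV-treated and untreated embryos had overlapping levels with nearly the same mean. The untreated libraries 1 to 5 had 125.6, 192, 114, 46.8 and 197 CPM, the UV libraries 105.9, 125.9, 73.5, 183 and 171 CPM, and the LiCl libraries 6.31, 5.83, 2.38, 1.05 and 23.6 CPM. All 5 LiCl libraries lay below every other library, and LiCl library 5 lay well above the other 4. The means were 135 ± 62.2 CPM in untreated, 132 ± 45.5 CPM in UV-treated and 7.84 ± 9.11 CPM in LiCl-treated embryos (SD, n = 5 libraries each). On the log2 scale the fitted change with LiCl was -4.08 ± 0.660 (SE) against untreated (edgeR FDR = 0.00140) and -4.05 ± 0.659 against UV-treated embryos (edgeR FDR = 0.000691), and both passed the threshold. The change with UV was -0.03 ± 0.575 (edgeR FDR = 0.991). Without LiCl library 5 the change against untreated embryos was -5.15, the furthest from 0 of the 15 fits that each left out 1 library. In whole embryos, fewer cells of a type and less RNA per cell cannot be told apart, which holds for every gene described here.

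The level of mespb also fell with LiCl, 3.01-fold against untreated embryos, and it was the only one of the 5 tested genes whose mean was higher with UV than without treatment. The untreated libraries 1 to 5 had 106.4, 135, 103.5, 104.4 and 164 CPM, the UV libraries 196, 161, 169, 226 and 221 CPM, and the LiCl libraries 29.8, 26.6, 21.8, 43.3 and 82.0 CPM. The LiCl libraries lay below all others, while 4 of 5 UV libraries lay above all untreated ones and the remaining one, UV library 2, lay just below untreated library 5. The means were 123 ± 26.7 CPM, 195 ± 29.5 CPM and 40.7 ± 24.4 CPM in untreated, UV-treated and LiCl-treated embryos (SD, n = 5). The log2 fold change was -1.59 ± 0.295 for LiCl against untreated (edgeR FDR = 0.00308) and -2.25 ± 0.301 for LiCl against UV-treated embryos (edgeR FDR = 0.000167), both past the threshold. The log2 difference of UV-treated from untreated embryos, 0.67 ± 0.288, did not pass (edgeR FDR = 0.390). The call against untreated embryos was lost without LiCl library 1 or 2 (edgeR FDR up to 0.0110), with only the 10 libraries compared in the fit, and when the fold itself was tested against 2 by glmTreat (FDR = 0.225).

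**Figure D1:**
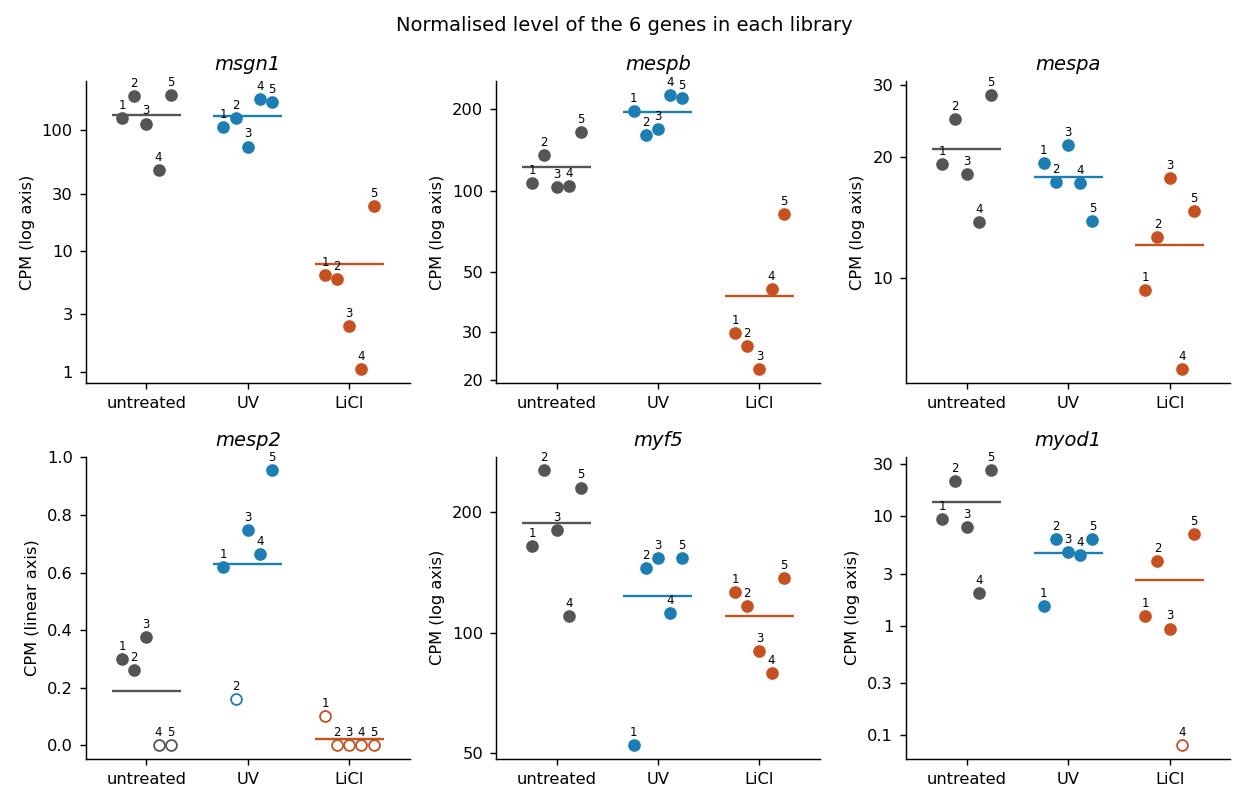
CPM of each gene in each of the 15 libraries, numbered by replicate, with the mean of each condition as a line. The axes are logarithmic except for mesp2, and open points are libraries with 3 counts or fewer. The LiCl libraries of msgn1 and mespb lie below all untreated and UV libraries, while those of mespa, myf5 and myod1 overlap both other conditions.

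The neighbouring gene mespa passed in no comparison. The untreated libraries 1 to 5 had 19.2, 24.8, 18.1, 13.8 and 28.4 CPM, the UV libraries 19.3, 17.3, 21.4, 17.2 and 13.9 CPM, and the LiCl libraries 9.36, 12.7, 17.7, 5.96 and 14.7 CPM. The 3 conditions overlapped, with 3 of 5 LiCl libraries below all untreated and all UV libraries. The means were 20.9 ± 5.76, 17.8 ± 2.79 and 12.1 ± 4.57 CPM (SD, n = 5). The log2 fold change was -0.78 ± 0.265 for LiCl against untreated (edgeR FDR = 0.0621) and -0.56 ± 0.265 for LiCl against UV-treated embryos (edgeR FDR = 0.184). It was -0.23 ± 0.262 for UV against untreated (edgeR FDR = 0.849).

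The third gene of the cluster, mesp2, was close to the limit of counting and was left out of the test by the filter on low counts. It had 5, 4, 4, 0 and 0 counts in untreated libraries 1 to 5, 9, 2, 14, 11 and 11 counts in the UV libraries, and 1, 0, 0, 0 and 0 counts in the LiCl libraries. All LiCl libraries were under the floor of 3 counts per library, and they lay below all UV libraries. UV library 2 was under the floor too, so the gap there is 1 count in LiCl library 1 (0.102 CPM) against 2 in UV library 2 (0.160 CPM). Libraries lay apart in this direction for 6.04% of the genes tested, to which mesp2 does not belong. Against the mean of that floor in the LiCl libraries (0.247 CPM), the UV-treated mean of 0.630 ± 0.292 CPM (SD, n = 5) was at least 2.54-fold higher. The untreated mean, 0.187 ± 0.176 CPM, was itself under that floor, and no fold is given. When the filter on low counts was dropped, mesp2 passed for LiCl against UV-treated embryos (edgeR FDR = 0.00795, over 24808 genes), as it did with DESeq2 (adjusted p = 0.000849). In the fits that left out 1 library and kept mesp2, the edgeR FDR of that comparison ranged from 0.00560 to 0.0186, and it missed 1% without LiCl library 1, 2 or 4. In those fits the filter on low counts kept mesp2 through its UV libraries, the group where it is highest. The range therefore rests on a choice by outcome and is no separate support.

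Both myogenic factors had their highest means in untreated embryos. For myf5, the untreated libraries 1 to 5 had 165, 254, 180.1, 110.3 and 231 CPM, the UV libraries 52.3, 145, 154, 112 and 153 CPM, and the LiCl libraries 126.4, 116, 89.9, 79.2 and 137 CPM. All 3 conditions overlapped. Untreated library 4 lay below 4 of the 5 UV libraries, and UV library 1 was the lowest of all 15. The means were 188 ± 56.6, 123 ± 43.2 and 110 ± 24.4 CPM in untreated, UV-treated and LiCl-treated embryos (SD, n = 5). The log2 fold change was -0.78 ± 0.276 for LiCl-treated (edgeR FDR = 0.0741) and -0.61 ± 0.275 for UV-treated embryos (edgeR FDR = 0.411), each against untreated, and the treatments differed by -0.17 ± 0.274 (edgeR FDR = 0.773). None of these passed.

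Among the 5 tested genes myod1 had the largest coefficient of variation in untreated embryos, 74.6%. The untreated libraries 1 to 5 had 9.53, 21.2, 8.06, 2.00 and 26.3 CPM, the UV libraries 1.51, 6.17, 4.71, 4.42 and 6.16 CPM, and the LiCl libraries 1.22, 3.92, 0.941, 0.0806 and 6.96 CPM. Untreated library 4 lay within the range of both treatments, and the other 4 untreated libraries lay above all treated ones. The means were 13.4 ± 10.0, 4.59 ± 1.90 and 2.63 ± 2.82 CPM (SD, n = 5). LiCl library 4 held only 1 count, under the floor of 3. The log2 fold change was -2.33 ± 0.782 for LiCl-treated (edgeR FDR = 0.0600) and -1.55 ± 0.755 for UV-treated embryos (edgeR FDR = 0.451), each against untreated. Between LiCl and UV it was -0.79 ± 0.766 (edgeR FDR = 0.585), and none of the 3 passed.

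Libraries of the same number, LiCl-treated and untreated, deviated together and were taken as pairs. The fits above did not use these pairs. With the replicate number as a block, myod1 passed the threshold for LiCl against untreated embryos at a log2 fold change of -2.54 (edgeR FDR = 0.00971), and at -2.63 (edgeR FDR = 0.000268) when only those 10 libraries were fitted. This took the number of these genes called from 2, in the fit of all 15 libraries without pairs, to 3. With only those 10 libraries fitted, 908 of all genes tested were called with the block and 247 without it. The block with all 15 libraries also groups the UV libraries by number, which were not taken as pairs. In each of the 5 pairs the LiCl library had less myod1, less mespa and less myf5 than the untreated library of the same number. For mespa the values of pair 3 were close, at 17.7 and 18.1 CPM. How many of all genes were lower in all 5 pairs was not counted, so this is a description. With the block and only the 10 libraries, myf5 reached an edgeR FDR of 0.00225 at a log2 fold change of -0.75, short of the fold limit, and mespa an edgeR FDR of 0.0104 at -0.83. No other call of the 6 genes in that comparison differed from the fit of all 15 libraries without pairs. With only the 10 libraries fitted, 1 of these genes was called without the block and 3 with it. There mespb, like myod1, was called only with the block.

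Untreated library 5 was the highest and untreated library 4 the lowest of its condition in 4 of the 6 genes each, and LiCl libraries 5 and 4 stood likewise among the LiCl libraries. The summed level of a list of other muscle genes was likewise highest and lowest in these libraries, at 1643 and 971 CPM in untreated libraries 5 and 4 and at 1170 and 935 CPM in LiCl libraries 5 and 4. The same held for the sums of the presomitic, the somite and the ventral lists described below, so it was not particular to muscle. The axial list differed, with its highest untreated sum in library 4 (2324 CPM) and its highest LiCl sum in library 1 (4669 CPM). Such sums are carried mostly by the genes of highest level. In the muscle list the untreated means of tested genes ran from 0.301 to 373 CPM, so its sum is no measure of muscle cells. Among the UV libraries no library was highest or lowest in more than 2 of the 6 genes. The part of these differences between libraries in the calls above was measured by leaving out each library in turn.

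Of the 5 tested genes, 2 (msgn1 and mespb) passed for LiCl against untreated embryos in the fit without pairs, both lower. Over all genes tested the share was 3.67% in either direction and 1.42% lower. For LiCl against UV-treated embryos the same 2 genes passed, both lower, where the share of all genes was 6.1% in either direction and 2.55% lower. The LiCl libraries of both genes lay outside the range of the other condition in each comparison, which held for 4.13% of all genes tested in the direction of less RNA with LiCl than without treatment and for 6.04% in that of less with LiCl than with UV. For UV against untreated embryos none of the 5 passed with edgeR, DESeq2 or limma-voom, where 0.0712% of all genes did with edgeR, and 2 of the 5 (mespb and myf5) had an unadjusted p under 0.05, beside 11.5% of all genes. The 6 genes were chosen with results of these libraries known, so these counts describe them and do not stand as independent evidence.

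**Figure D2:**
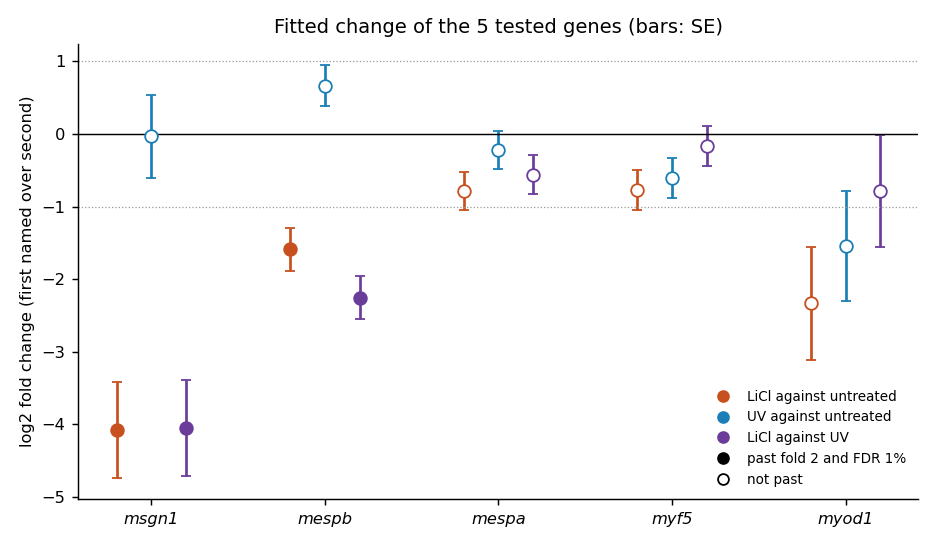
Fitted log2 fold change of the 5 tested genes in the 3 comparisons, from the fit without pairs, with bars of 1 SE. Filled points passed a fold change of 2 at an FDR of 1%, and dotted lines mark log2 values of -1 and 1. The changes of msgn1 and mespb with LiCl are filled, at -4.08 and -1.59 against untreated embryos, and all points of mespa, myf5 and myod1 are open.

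Whether the untreated level lay midway between both treatments was asked with a contrast of the mean of the LiCl and UV log2 levels against untreated. None of the 5 genes passed it with edgeR, where 0.0356% of all genes tested did, and 4 of the 5 had an unadjusted p under 0.05, beside 17.2% of all genes. Those 4 were msgn1, mespa, myf5 and myod1, and the fitted difference of all 5 was below 0. It was -2.06 ± 0.484 for msgn1 (edgeR FDR = 0.0550), -1.94 ± 0.618 for myod1 (edgeR FDR = 0.116) and -0.69 ± 0.232 for myf5 (edgeR FDR = 0.134). With DESeq2, msgn1 passed. For msgn1 the fitted log2 changes were -4.08 with LiCl and -0.03 with UV, while mespa, myf5 and myod1 had fitted changes below 0 with both treatments.

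Per kilobase of exon, so that genes can be compared, myf5 stood highest in untreated embryos at 162 ± 48.9 CPM per kb, above 96.3% of all tested genes. Then came msgn1 (132 ± 60.6 CPM per kb) and mespb (103.8 ± 22.6 CPM per kb), and the ranges of neighbouring genes in this order overlapped. Far below them were myod1 (24.7 ± 18.5 CPM per kb) and mespa (13.7 ± 3.77 CPM per kb), which also overlapped, and last mesp2 (0.330 ± 0.310 CPM per kb). With UV the order of the 3 highest was mespb, msgn1 and myf5, at 165, 129 and 106.4 CPM per kb, again with overlapping ranges. With LiCl the highest were myf5 (94.7 CPM per kb) and mespb (34.4 CPM per kb), followed by mespa, msgn1 and myod1 at 7.91, 7.64 and 4.83 CPM per kb. There mespb, at 18.5 CPM per kb or more, lay above all values of mespa and myod1. It overlapped msgn1, which reached 23.0 CPM per kb in LiCl library 5. Thus msgn1 came next to myf5 in untreated embryos and next to mespa in LiCl-treated ones. The short model of myod1 makes its level per length uncertain.

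Ratios within a library do not depend on its size. The ratio of myf5 to msgn1 per kb ranged from 1.03 to 2.09 in untreated, from 0.437 to 1.85 in UV-treated and from 5.13 to 66.9 in LiCl-treated libraries, so the LiCl libraries stood above all others. The ratio of mespb to mespa was 7.04 to 9.76 in untreated and 10.2 to 20.5 in UV-treated libraries, which did not overlap, and 1.59 to 9.37 in LiCl-treated libraries. The median ratio of myf5 to myod1 was 8.11 in untreated, 11.9 in UV-treated and 44.8 in LiCl-treated libraries, with overlapping ranges. These ratios are descriptions and were not tested.

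**Figure D3:**
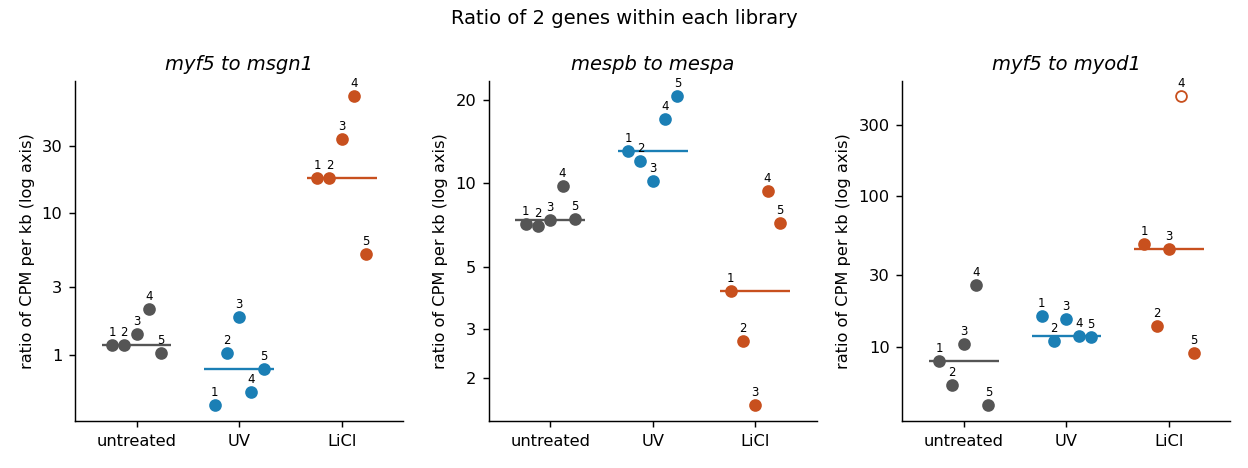
Ratio of the levels per kb of 2 genes within each library, numbered by replicate, on logarithmic axes with the median of each condition as a line. The open point is LiCl library 4, where myod1 had 1 count. The ratio of myf5 to msgn1 is at least 5.13 in the LiCl libraries and at most 2.09 elsewhere, and the ratio of mespb to mespa is higher in all UV than in all untreated libraries.

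Among other genes of the presomitic and posterior mesoderm, 32 of 42 listed symbols were tested. With LiCl, 7 of them fell against untreated embryos and none rose, where 1.42% of all genes fell, with a median log2 fold change over the 32 of -0.50 beside 0.01 over all genes. Those 7 were evx1 and the caudal-related genes cdx1 and cdx4, homeobox genes of the posterior body, the zinc-finger genes sp5 and sp8, which respond to Wnt signals, the ligand gene wnt8a and the Notch ligand gene dlc. The level of evx1 was 54.2 ± 24.0 CPM in untreated, 95.8 ± 38.8 CPM in UV-treated and 5.02 ± 3.89 CPM in LiCl-treated embryos (SD, n = 5), a log2 fold change with LiCl of -3.42 (edgeR FDR = 0.000955). The change of sp5 was -3.16 (edgeR FDR = 0.00181) and that of wnt8a -2.22 (edgeR FDR = 0.000549). The calls of cdx1 and cdx4 were lost without LiCl library 2 or untreated library 2, that of cdx4 also without LiCl library 1, and 11 genes fell without untreated library 4. With only the 10 libraries compared in the fit 4 genes fell, but 10 did with the replicate block, with those 10 libraries as with all 15. With glmTreat against a fold of 2 none did.

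Between the treatments, 13 of these 32 genes were lower with LiCl than with UV and 1 was higher, where the shares of all genes were 2.55% and 3.55%. The median log2 difference was -0.44 beside 0.03 over all genes, and with glmTreat against a fold of 2 the genes that were lower numbered 4. The largest differences on the log2 scale were those of evx1 (-4.24), wnt8a (-3.35), sp5 (-3.30) and hes5.1 (-3.13), a target of Notch signals, all past the threshold. The exception was hes7.1, a gene of the Hes family, whose RNA in whole embryos was not assigned to the presomitic mesoderm. Its level was 31.3 ± 7.21 CPM in untreated, 2.69 ± 2.67 CPM in UV-treated and 23.9 ± 6.62 CPM in LiCl-treated embryos. It was the only gene of the list to pass for UV against untreated embryos, at a log2 fold change of -3.51 (edgeR FDR = 0.00369), a comparison in which 0.0641% of all genes tested were lower. That call was kept in 8 of 15 fits that left out 1 library and was lost without untreated library 1, 2 or 3 or UV library 1, 2, 4 or 5 (edgeR FDR up to 0.0201).

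Of the genes of somites and segmentation, 19 of 33 listed symbols were tested. With LiCl only hes6.1, a bHLH gene of the Hes family, fell against untreated embryos, where 1.42% of all genes did. Its level went from 399 ± 72.9 to 134 ± 45.3 CPM (log2 fold change -1.57, edgeR FDR = 0.000399). With the replicate block 2 genes fell, or 3 with only the 10 libraries compared. The median log2 fold change of the list was -0.0046 with LiCl and -0.13 with UV. No gene passed for UV against untreated embryos with edgeR and all 15 libraries, while 7 had an unadjusted p under 0.05, beside 11.5% of all genes, and 3 passed with DESeq2. With edgeR, 3 were lower with UV without LiCl library 4, and 2 with the replicate block and all 15 libraries. That block groups the UV libraries by number, though they were not taken as pairs. Between the treatments 3 genes were higher with LiCl, and hes6.1 was lower, where the shares of all genes were 3.55% and 2.55%. Among the 3 were ripply2.1 and ripply2.2, which encode co-repressors that restrict Mesp activity at the somite boundary. The mean of ripply2.2 was 185 ± 81.7 CPM in untreated, 37.7 ± 6.14 CPM in UV-treated and 185 ± 124 CPM in LiCl-treated embryos. The corresponding means of ripply2.1 were 37.9 ± 13.7, 8.94 ± 2.75 and 41.2 ± 22.6 CPM. The edgeR FDR of LiCl against UV was 0.00142 for ripply2.1 and 0.00753 for ripply2.2 (log2 difference 2.29). The call of ripply2.2 was kept in 4 of the 15 fits that left out 1 library, those without LiCl or untreated library 4 or 5, and lost in the rest (edgeR FDR up to 0.0235). The call of ripply2.1 was kept in all 15. The differences of ripply2.1 and ripply2.2 between the treatments had the opposite sign to that of msgn1 and mespb.

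The muscle list had 36 of 42 symbols in the count table, of which 19 passed the filter on low counts. For UV against untreated embryos 17 of the 19 had fitted changes below 0, with a median log2 fold change of -1.10 beside -0.02 over all genes, but none passed with edgeR. An unadjusted p under 0.05 was found for 11 of them, beside 11.5% of all genes, and 1 passed with DESeq2. For LiCl against untreated embryos only srl passed, and it was higher, where 2.25% of all genes were. Its log2 fold change was 2.12 (edgeR FDR = 0.00160), and the call was lost with only the 10 libraries compared and with glmTreat. The gene srl encodes sarcalumenin, a calcium-binding protein of the sarcoplasmic reticulum. Between the treatments srl (4.16, edgeR FDR = 1.52e-05) and myf6 were higher with LiCl, where 3.55% of all genes were. The neighbour of myf5, myf6, had 2, 12, 1, 0 and 7 counts in untreated libraries 1 to 5, 0, 0, 0, 1 and 1 counts in the UV libraries, and 5, 23, 27, 13 and 20 counts in the LiCl libraries. Its LiCl libraries lay above all UV libraries and its mean there, 1.39 CPM, was at least 6.61-fold above the mean floor of 3 counts in the UV libraries. The filter on low counts kept myf6 mostly through its LiCl libraries, where it is highest, so its call is no separate support. The share of all genes whose LiCl libraries lay above all UV libraries is not given here. The mean of myf6 was highest with LiCl, while that of myf5 was lowest with LiCl. For LiCl against untreated embryos neither passed (edgeR FDR = 0.0563 for myf6 and 0.0741 for myf5), and the libraries overlapped. Between LiCl and UV, myf5 did not pass either (edgeR FDR = 0.773).

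**Figure D4:**
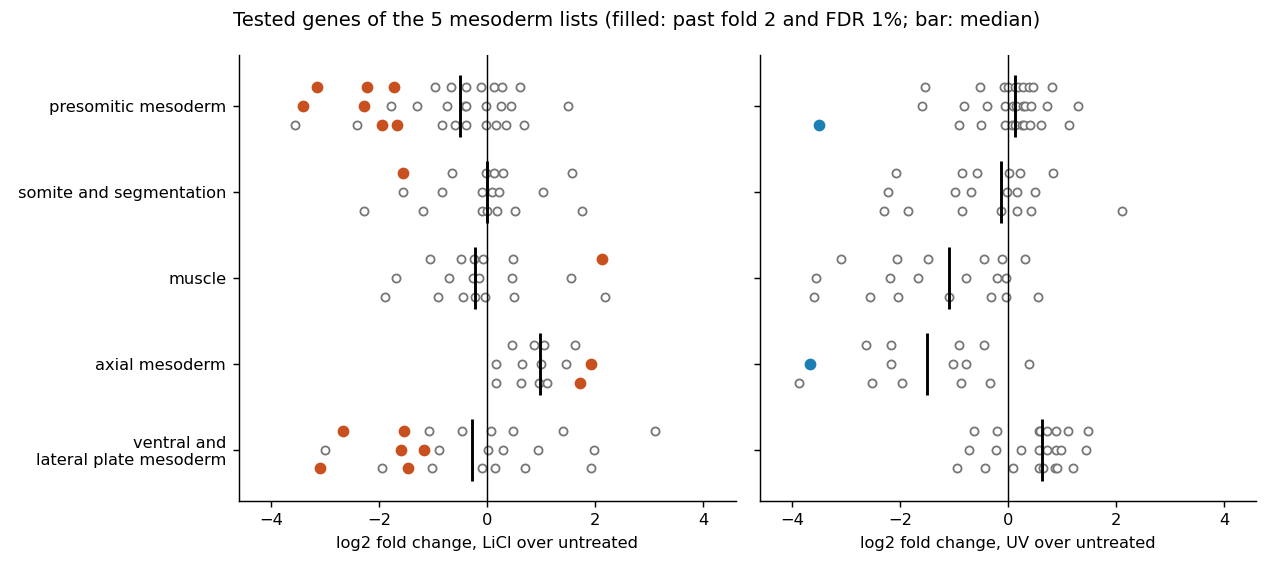
Log2 fold change with LiCl (left) and with UV (right), each against untreated embryos, for the tested genes of 5 mesoderm lists, with the median as a bar and points spread vertically for legibility. Filled points passed a fold change of 2 at an FDR of 1%. With LiCl, 7 presomitic and 6 ventral genes are filled below 0 and 2 axial genes above it, while with UV 1 presomitic and 1 axial gene are filled.

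Genes listed for the neighbouring mesoderm at either end of the axis differed between the treatments. The libraries are of whole embryos, so the RNA of these genes was not assigned to mesoderm. The paper reports that the treatments also shifted ectoderm between neural tissue and epidermis, and the part of ectoderm in these levels was not tested. Of 14 tested axial genes, of the organiser and notochord, 2 rose with LiCl against untreated embryos (dkk1 and frzb), where 2.25% of all genes did. With UV against untreated embryos 1 fell (fst), where 0.0641% of all genes did, and 10 were higher with LiCl than with UV (3.55% of all genes). With the replicate block and only the 10 libraries compared, 6 rose with LiCl. For UV against untreated embryos 10 of the 14 had an unadjusted p under 0.05, beside 11.5% of all genes. There 8 were lower with DESeq2 and 4 with limma-voom. With edgeR, 3 were lower with the block and all 15 libraries, which groups by number UV libraries that were not taken as pairs, and 5 without UV library 3. The median log2 difference between LiCl and UV was 2.66. The calls of frzb and fst were kept in 7 and 5 of the 15 fits that left out 1 library. That of frzb was lost without LiCl library 1, 2, 4 or 5 or untreated library 1, 2, 3 or 5, and that of fst without LiCl library 1 or 2, UV library 1, 2, 4 or 5 or untreated library 1, 2, 3 or 5. The summed level of the axial list was 1799 to 2324 CPM in untreated, 596 to 1344 CPM in UV-treated and 3874 to 4669 CPM in LiCl-treated libraries, and no gene of this list was at 0 throughout a condition. Of 24 tested ventral and lateral plate genes, 6 fell with LiCl against untreated embryos and 10 were lower with LiCl than with UV, with 1 higher (nkx2-3) and a median log2 difference of -0.50. The shares of all genes that were lower were 1.42% and 2.55%. Without LiCl library 1 or 2 the 6 genes became 3, with glmTreat none, and with the block and only the 10 libraries compared 9 fell and 2 rose. For UV against untreated embryos none of the 24 passed with edgeR, DESeq2 or limma-voom. An unadjusted p under 0.05 was found for 6 of them, beside 11.5% of all genes. The summed level of the ventral list was 3855 to 6863 CPM in untreated, 4983 to 9963 CPM in UV-treated and 1761 to 3908 CPM in LiCl-treated libraries. LiCl library 5, the highest of its condition in msgn1 and mespb, had the highest ventral sum of the LiCl libraries (3908 CPM). The part of these lists in the levels of the 6 genes was not tested.

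The genes with the nearest profiles over the 15 libraries, by the root-mean-square (RMS) difference of centred log2 CPM among 12839 genes, were bspry, evx1 (0.550) and vsig8 (0.560) for msgn1, and all 3 fell with LiCl against untreated embryos. The log2 fold changes of bspry and vsig8 were -4.04 (edgeR FDR = 0.000855) and -4.45 (edgeR FDR = 0.00294), beside -4.08 for msgn1. For mespb they were klf5 (0.297), tfap2c (0.307) and an unnamed gene. Both klf5 and tfap2c encode transcription factors, and both fell with LiCl against untreated embryos, with log2 fold changes of -1.67 and -1.91. All these genes were picked by likeness over the same 15 libraries. That msgn1, mespb and their nearest genes fell together with LiCl therefore follows from the choice and is no separate result. For mespa they were sirt1 (0.211), cdca3 (0.218) and fam64a (0.246), for myf5 olig4 (0.291), an unnamed gene and sgk2 (0.333), and for myod1 an unnamed gene, pcdh8l (0.797) and another unnamed gene. The gene pcdh8l encodes a protocadherin, a class of cell adhesion proteins, and its change with LiCl of -3.57 missed the threshold (edgeR FDR = 0.0106). None of the 5 tested genes was among the 3 nearest of another, and mesp2 was too low to be ranked. The smallest RMS difference between members was that of mespa and myf5, at 0.551, where the RMS spread of mespa about its own mean was 0.530. Yet myf5 had only rank 3045 among the genes nearest to mespa, and mespa rank 2216 for myf5. The best rank was 177, of myod1 for msgn1, at 1.48 where the spread of msgn1 was 2.41. In the other direction msgn1 had rank 1144 for myod1. Genes that vary little have small differences, so the RMS alone does not order pairs by likeness.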

How the data were processed

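Counts of reads per gene were deposited for 15 libraries, without normalisation, as whole numbers. The authors aligned paired-end reads to gene models v7.2 of assembly v7.1 with TopHat2 and counted them with HTSeq. The submitters' processing notes name TopHat2 2.0.10 and 2.1.1, and the strand setting is not given in the sources used here. The deposited gene models supplied positions and exon lengths, which are coordinates, another kind of value. Columns were matched to libraries through the sample titles, and 0 columns of counts were left out.

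The tests used edgeR 4.0.16 under R 4.3.3, with TMM normalisation, filterByExpr by condition and a robust quasi-likelihood fit in which all 15 libraries entered and condition was the sole factor. P-values were adjusted by the Benjamini-Hochberg method over 14041 genes. Fold changes used a prior count of 0.125, and the SE was taken from the log2 fold change and its F statistic. A library at 3 counts or fewer was at the floor. Floors cover counting error only, since reads carry no molecular identifiers. The members and lists were chosen with earlier results of these data known. Genes named are the members, genes of the lists past the threshold in at least 1 comparison (up to 10 per list, by the LiCl to UV difference), and the 3 nearest profiles of each member with a mean of at least 1 CPM (log2 CPM with a prior count of 2).

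Same-numbered libraries were checked for pairing by correlating deviations from the condition means. Correlations were 0.338 to 0.731 for LiCl and untreated libraries, which were taken as paired, since the study describes 5 independent experiments. LiCl library 3 did not correlate best with the untreated library of its own number. UV library 4 correlated at -0.254 with untreated library 4 and at -0.120 with LiCl library 4, so UV libraries were not taken as paired. A replicate block in a fit that holds UV libraries groups them by number all the same. No pair of replicates agreed within sampling noise. The chi-square of counts per degree of freedom was 4.66 for UV libraries 4 and 5. It was 14.2 to 131 for all other pairs of a condition. Whether UV libraries 4 and 5 are independent was not tested. Alternatives used DESeq2 1.42.0 and limma 3.58.1, other normalisations, filters and thresholds, the replicate block, and leaving out each library. The test was checked on simulated counts with 200 changed genes. Sequences of the members were not used here. The values of 1 gene of the somite list are not reported here.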

Additional observations from a re-analysis of the deposited data

Results flagged for a closer look

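A library far from the other 4 of its condition was looked for in each of the 6 genes and 3 conditions with Dixon's test. It was run on CPM, not on log2 CPM. Chance passes it in about 1 in 20 groups of normally distributed values, and 2 of 18 groups passed. LiCl library 5 stood apart in msgn1, at 23.6 CPM where the other LiCl libraries had 1.05 to 6.31 CPM. In log2 CPM these were 4.57 against 0.248 to 2.69, on which the test was not run. Without it the log2 fold change of msgn1 was -5.15 against untreated and -5.12 against UV-treated embryos, past the threshold in both. LiCl library 1 stood apart in mesp2, at 0.102 CPM, which is 1 count where the other 4 LiCl libraries had 0, so the value is at the floor. A single count beside 0 in all the rest always passes this test, so nothing is drawn from it.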

How the results depend on the processing

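The fitted changes and counts of calls were recomputed under 12 alternatives and 15 fits that left out 1 library, except that the contrast of the mean of both treatments has no value in the 2 fits limited to the 10 libraries compared. Ratios and nearest profiles were not recomputed. The number of members called for UV against untreated embryos was 0 in all of them, and for LiCl against UV-treated embryos it was 2, or 3 where mesp2 was also called, which was with DESeq2, with and without the beta prior, without the filter on low counts, and without UV library 2 or untreated library 3. In the fits without those libraries the filter kept mesp2 through the UV libraries, where it is highest, so its call there is no separate support. For LiCl against untreated embryos the number of members called went from 2 to 0 with glmTreat against a fold of 2 and to 1 with only the 10 libraries compared, and ranged from 1 to 2 when a library was left out. The call of msgn1 there was lost only with glmTreat (FDR = 0.0110). For the mean of both treatments against untreated it went from 0 to 1 with DESeq2, with and without the beta prior, and ranged from 0 to 1 when a library was left out (msgn1, edgeR FDR = 0.00564 without LiCl library 5). The change of msgn1 with UV, -0.03, was not called and turned positive with limma-voom (0.062), with the replicate block (0.10 with all 15 libraries, 0.025 with the 10 compared) and without UV library 1 or 3 or untreated library 2 or 5, with a range over these 15 fits of -0.25 to 0.15. With the replicate block 3 members were called for LiCl against untreated embryos, 0 for UV against untreated and 2 for LiCl against UV. Relative to the fit of all 15 libraries without pairs, the block changed the call of no member other than myod1. With only the 10 libraries compared, mespb too was called for LiCl against untreated embryos only with the block. Of the UV libraries, 3 of 5 correlated best with the untreated library of their own number. Of the LiCl libraries, 4 of 5 correlated best with the UV library of theirs.

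Over all genes, edgeR called 515 genes for LiCl against untreated, 10 for UV against untreated, 857 for LiCl against UV and 5 for the mean of both treatments. In that order DESeq2 called 1198, 130, 1595 and 168 (1205, 121, 1594 and 175 with the beta prior), glmTreat 47, 0, 247 and 0, and an FDR of 5% without a fold limit 1889, 82, 2135 and 135. With limma-voom 17 genes were called for UV against untreated and 8 for the mean. With only the 10 libraries compared, 247 and 0 genes were called for LiCl and UV against untreated, and with the block in that fit 908 and 0. The block with all 15 libraries called 46 for UV against untreated and 29 for the mean. Leaving out 1 library gave 265 to 701, 3 to 41, 618 to 1140 and 1 to 23 genes. For LiCl against untreated the count was 265 to 342 without LiCl library 2 or untreated library 1, 2 or 3. Per kilobase of coding sequence, msgn1 (262 CPM) stood above myf5 (246 CPM) in untreated embryos, the reverse of their order per kilobase of exon. The depth limits mesp2, myf6 and myod1 in LiCl library 4, which lie at or near the floor.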
